A study of Homo sapiens with 9 samples.

Results

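The 10 genes described here form the core of the G1 cell cycle switch in RPMI-8402, an established line grown from a human T-cell leukaemia (T-cell acute lymphoblastic leukaemia, T-ALL): the D-type cyclin genes CCND1, CCND2 and CCND3, the cyclin-dependent kinase genes CDK4 and CDK6, the inhibitor genes CDKN1A, CDKN1B, CDKN2A and CDKN2B, and the retinoblastoma gene RB1. They were taken by name, 10 of 20037 protein-coding genes in the RefSeq table, and every deposited peak that overlapped a gene body or the 50 kb to each side of it was collected. ChIP-seq, which sequences DNA pulled down with an antibody from fixed chromatin, was run with an antibody against NKX2-1 (TTF1), a homeodomain transcription factor, on 8 clones. WT30, WT28, WT13 and WT10 are wild type (WT); S36, S04, C15 and C12 carry the genotype label NKX2-1 and are named as knockouts in the design text of the series. Each clone gave 1 library, so p-values over the libraries measure the spread between these clones and libraries together. A single further library profiled H3K27ac, histone H3 acetylated at lysine 27, which marks promoters and enhancers in use. It has the genotype label NKX2-1 too, it names no clone, and it has no replicate. The deposited data also held a combined NKX2-1 peak list and a list of WT-only regions. All libraries come from the same line, and no treatment is named in the labels.

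D-type cyclins bind CDK4 or CDK6, and the resulting kinases phosphorylate the RB1 protein, which then lets go of E2F transcription factors so that S-phase genes can be transcribed. Inhibitors of the INK4 family, encoded by CDKN2A and CDKN2B, bind CDK4 and CDK6 directly, and those of the CIP/KIP family, encoded by CDKN1A and CDKN1B, bind cyclin-kinase complexes. In the T lineage, cyclin D3 and CDK6 are the members known for driving the expansion of immature thymocytes, and the CDKN2A and CDKN2B locus is among those most often deleted in T-ALL.

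The NKX2-1 antibody libraries held 810 to 934 peaks in the knockout clones and 742 to 1144 in the WT clones on chromosomes 1 to 22, X and Y, with WT10 the highest. WT10 and S36 stood apart in having peaks that no other library had: 250 genes had a peak within 50 kb in WT10 alone and 319 in S36 alone, against 1 to 38 for each of the other 6 libraries. The H3K27ac library held 9857 peaks. Sequencing depth is unknown, so a gene without a peak is a gene where none was called. In such bulk libraries, enrichment in a fraction of cells and weaker enrichment in all cells cannot be told apart. Of 10 T-cell leukaemia markers, 8 had an H3K27ac peak within 10 kb, namely CD3D, CD3E, CD3G, CD5, LCK, TAL1, LMO1 and GATA3, and CD7 and CD2 had none. The same was true of 29.0% of all genes. It also held for 1 of 4 B-cell markers (CD79A) and 3 of 4 myeloid markers (MPO, CD14 and SPI1), so these peaks do not separate the lineages by themselves.

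Acetylation was unevenly spread over the 10 genes. CDK6 had 27 H3K27ac peaks in its window, CCND3 18, CDKN1B 7, RB1 6 and CDK4 1, while CCND1, CCND2, CDKN1A, CDKN2A and CDKN2B had 0. CDK6 and CCND3 together held 45 of the 59 peaks (76.3%). An H3K27ac peak was present at 5 of 10 members, against 44.8% of all protein-coding genes, so the presence of a peak in the window does not set the group apart. The same 5 genes had a peak over the gene body itself, against 21.2% of all genes. The median number of peaks was 0.5 over the members and 0 over all genes. The number at CDK6 and CCND3 is high: 0.235% of all genes had 18 or more peaks in the same window. Both are long genes, with windows of 331653 bp and 215103 bp that exceed those of most genes. Per 100 kb of window, CDK6 had 8.14 peaks, CCND3 8.37, CDKN1B 6.67, RB1 2.16 and CDK4 0.956. H3K27ac peaks covered 6.97% of the CDK6 window, 5.89% of the CDKN1B window, 4.57% of the CCND3 window, 1.41% of the RB1 window and 0.307% of the CDK4 window. Of all genes, 99.0% had a covered share at or below that of CDK6. For CDKN1B the figure was 98.7%, for CCND3 98.2%, for RB1 90.4% and for CDK4 66.7%. These are values of 1 library and carry no test.

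**Figure D1:**
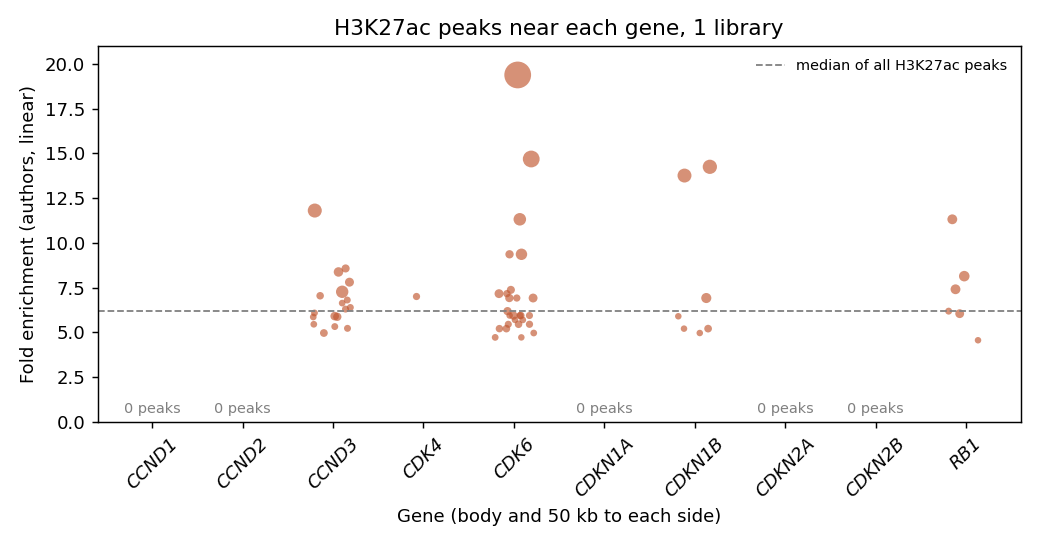
Each point is 1 H3K27ac peak in the window of the gene on the x axis; the y axis is the authors' fold enrichment on a linear scale, the point area grows with peak width, and the dashed line is the median of all 9857 peaks (6.19). CDK6 holds the highest and widest peak at 19.4-fold, CDKN1B has a pair above 13, and 5 genes have 0 peaks.

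The strongest peaks gave the same order as the numbers, except that CDKN1B and CCND3 changed places. Fold enrichment here is the authors' value at the peak summit over the background their peak caller used, and it is read only within the list it comes from. The strongest peak at CDK6 reached 19.4-fold, which ranked 26 of 9857. At CDKN1B the strongest was 14.2-fold (rank 179), at CCND3 11.8-fold (rank 407), at RB1 11.3-fold (rank 475) and at CDK4 7.03-fold (rank 3103). CDKN1B thus came before CCND3 on the strongest peak with 7 peaks in its window against 18, whereas the median fold of all peaks near the members was 6.19, the same as the median of the whole list. The strongest peaks of CDKN1B and RB1 had their summits outside these genes. Among peaks overlapping the gene body, CDKN1B reached 13.8-fold and RB1 6.05-fold, which placed RB1 below CDK4. With 1 library there is no replicate spread, and neighbours in either order cannot be said to differ.

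CDK6, the kinase that partners D-type cyclins in the T lineage (chromosome 7, 92604921 to 92836573, minus strand), carried acetylation at its start and at separate places within the gene. The peak over its start (92829786 to 92838256) was 8471 bp wide, the 5th widest of all 9857 peaks, and it also overlapped the antisense RNA gene CDK6-AS1, which begins beside it on the other strand. It covered both CDK6 starts in the RefSeq promoter table, at 92836573 and 92833959. Of the 8 members in that table, CDK6 and CDKN1B had a promoter entry (the 250 bases before to 50 after a start) overlapping an H3K27ac peak, compared with 10.4% of all protein-coding genes in the table. CCND1 and CCND2 are not matched there, and the only RB1 entry is an internal start at 48476450, so the RB1 gene start, which has H3K27ac peaks beside it, was not part of this count. The promoters of the acetylated members and of the cyclin and kinase members with a peak close by are printed to show the DNA under, or next to, these peaks: the 250 bases before the start, 5′ to 3′ on the strand of the gene, from RefSeq on GRCh38.p14, with capitals marking GC boxes (GGGCGG) and E boxes (CACGTG) on either strand.
CDK6, before 92836573, inside the 8471 bp peak: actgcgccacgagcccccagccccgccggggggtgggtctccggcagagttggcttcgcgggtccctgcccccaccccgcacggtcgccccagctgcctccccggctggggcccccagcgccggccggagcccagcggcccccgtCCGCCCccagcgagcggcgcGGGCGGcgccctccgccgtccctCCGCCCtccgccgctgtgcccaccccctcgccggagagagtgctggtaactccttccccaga
CDKN1B, before 12717368, partly inside a 13.8-fold peak: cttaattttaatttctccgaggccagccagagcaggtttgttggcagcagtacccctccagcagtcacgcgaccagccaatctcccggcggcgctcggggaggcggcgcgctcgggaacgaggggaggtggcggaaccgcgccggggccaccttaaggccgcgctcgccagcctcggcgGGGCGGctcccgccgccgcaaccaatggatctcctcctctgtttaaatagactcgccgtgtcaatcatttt
CCND3, before 41941808, 113 bp from an 11.8-fold peak: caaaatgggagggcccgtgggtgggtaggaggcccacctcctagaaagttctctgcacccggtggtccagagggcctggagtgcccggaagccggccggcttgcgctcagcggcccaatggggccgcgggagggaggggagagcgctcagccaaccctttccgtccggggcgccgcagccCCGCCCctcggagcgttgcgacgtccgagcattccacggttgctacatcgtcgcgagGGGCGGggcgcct
CDK4, before 57752310, 308 bp from a 7.03-fold peak: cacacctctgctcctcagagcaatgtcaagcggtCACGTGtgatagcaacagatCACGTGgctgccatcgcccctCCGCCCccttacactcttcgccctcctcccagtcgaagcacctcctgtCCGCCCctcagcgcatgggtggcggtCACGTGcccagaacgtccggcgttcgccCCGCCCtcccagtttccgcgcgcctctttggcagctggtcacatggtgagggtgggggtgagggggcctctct
These lie at chr7:92836574-92836823, chr12:12717118-12717367, chr6:41941809-41942058 and chr12:57752311-57752560. Their GC content was 80.0% for CDK6, 64.4% for CDKN1B, 71.2% for CCND3 and 65.6% for CDK4, with a median of 62.0% over all 22199 promoter entries. GC boxes are the letters recognised by SP-family factors. The printed entries held 3 at CDK6, 1 at CDKN1B, 2 at CCND3 and 3 at CDK4, and 53.7% of all promoters hold at least 1. Other entries of the same genes differed. The CDK6 start at 92833959, inside the same peak, had 0 GC boxes and 67.6% GC. For CCND3, the start at 41939205 had 0 and 61.2%, and that at 42048688 had 5 and 74.4%. The CDK4 promoter also held 3 E boxes, letters bound by MYC-family and related factors, where 7.37% of all promoters hold any; the E box was added to the search after this sequence had been seen. The letters CAAGTG (a core of NKX2-1 sites, in 8.52% of all promoters), TGTGGT (RUNX, 9.36%) and TTTGGCGC (E2F, 0.685%), searched on both strands, were in none of the 12 promoter entries of the 8 members. A match describes letters only, and the absence of one says nothing about the factor.

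Most H3K27ac peaks of the CDK6 window fell into 2 separate places, seen when peaks no more than 12 kb apart were joined into domains. This distance was chosen after the data had been seen. The domain at the start held 7 peaks over 14.3 kb with 10462 bp of peak, 45.2% of the acetylated length in the CDK6 window. By peak length it ranked 27 of 5164 domains. A second domain (92633796 to 92663069) lay 173.8 to 202.6 kb into the gene and held 17 peaks with 8742 bp of peak over 29.3 kb, ranking 48 by peak length and 11 by number of peaks. With peaks joined within 5 kb it split into domains of 6 and 11 peaks, which ranked 208 and 116 by peak length. Most of them overlapped the long noncoding RNA gene LOC112268009, which lies within CDK6. These peaks ran from 4.72- to 11.3-fold, lower than the peak at the start. Between the 2 domains stood an isolated peak of 299 bp (5.94-fold) and, nearer the start, one 3143 bp wide (92753701 to 92756843), 14.7-fold, with its summit 80.6 kb from the gene start; by width it ranked 83 of 9857. The outermost peak of the window, 14658 bp beyond the far end of CDK6, overlapped the neighbouring gene FAM133B and cannot be assigned to CDK6 from position alone.

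**Figure D2:**
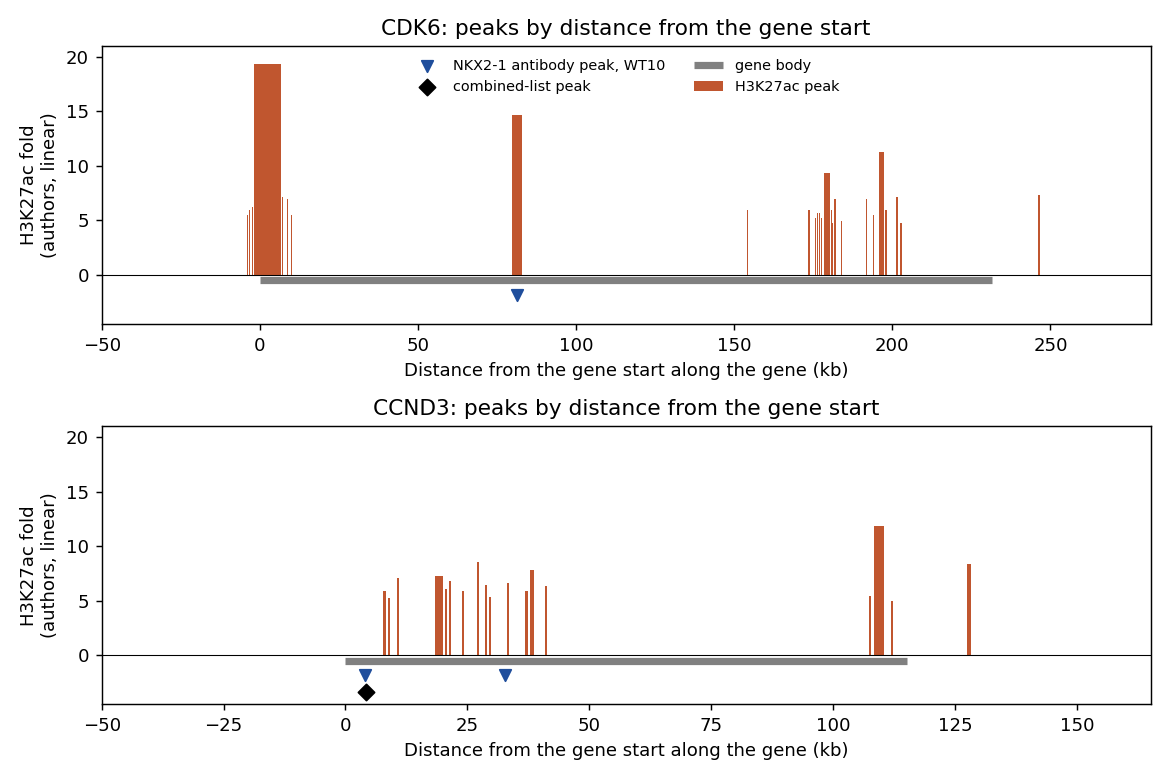
Bars are H3K27ac peaks, placed by distance from the gene start along the gene (kb) with the authors' fold enrichment as height (linear; peaks under 0.4 kb are drawn 0.4 kb wide); the grey line is the gene body, triangles are NKX2-1 antibody peaks of WT10 and the diamond is the combined-list peak. The CDK6 triangle sits under the single 14.7-fold peak. The CCND3 peak with a diamond lies near the outermost gene start, 4.11 kb in, and away from any bar.

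CCND3, which encodes cyclin D3 (chromosome 6, 41934933 to 42050035, minus strand), had 17 of its 18 peaks in the gene body. The strongest (41939601 to 41941695, 11.8-fold, 2095 bp) lay near the 3′ end of the gene, 108.8 kb from its outermost start and next to internal starts that RefSeq lists at 41941808 and 41939205. The start at 42048688 was 6401 bp from the nearest H3K27ac peak. Distances from the CCND3 gene start are given from the outermost start, and which start is used in this line was not tested. Most of the acetylated length, 63.9%, lay in a domain of 14 peaks over 33.4 kb (42008926 to 42042287), 5.23- to 8.57-fold, which ranked 94 of 5164 domains by peak length and 22 by number of peaks. A stretch of 66.4 kb without a peak separated this domain from the group around the internal starts. Of the 14 peaks, those at the lower coordinates overlapped the RNA gene LOC105375059, and the peak outside the gene overlapped BYSL, a ribosome biogenesis gene.

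CDKN1B, a CIP/KIP inhibitor gene (chromosome 12, 12717368 to 12722369, plus strand), had a compact pattern. Of its 7 peaks, 1 had its summit in the gene (12717269 to 12719332, 13.8-fold, 2064 bp), 1078 bp past the start. The strongest (12723375 to 12725548, 14.2-fold, 2174 bp) had its summit 1806 bp beyond the 3′ end and overlapped LOC105369663, a neighbouring RNA gene. The other 5, at 4.97- to 6.92-fold, lay upstream and overlapped GPR19, an orphan receptor gene, so they may belong to either gene by position. The 5 peaks nearest the gene formed a domain of 10.3 kb with 5782 bp of peak, ranking 114 of 5164.

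RB1, the substrate of these kinases (chromosome 13, 48303751 to 48481890, plus strand), had peaks at its start and beyond its 3′ end. The pair of peaks at the start was 6.19-fold (48303023 to 48303299, over the divergent RNA gene RB1-DT) and 6.05-fold (48304051 to 48304693), with the second summit 798 bp into the gene. The other 4 peaks lay 10166 to 24287 bp beyond the 3′ end and overlapped RCBTB2, the next gene, and they ran from 4.56- to 11.3-fold, 1 of them below the pair at the start. Counting only peaks over the RB1 gene body, the strongest was 6.05-fold. CDK4, the other kinase (chromosome 12, 57747727 to 57752310, minus strand), had a single peak of 321 bp (57751682 to 57752002, 7.03-fold, −log10 q 6.42), with its summit 465 bp inside the start. At a −log10 q of 10 or more CDK4 had no peak, and 4 of 10 members kept one, against 11.1% of all genes.

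**Figure D3:**
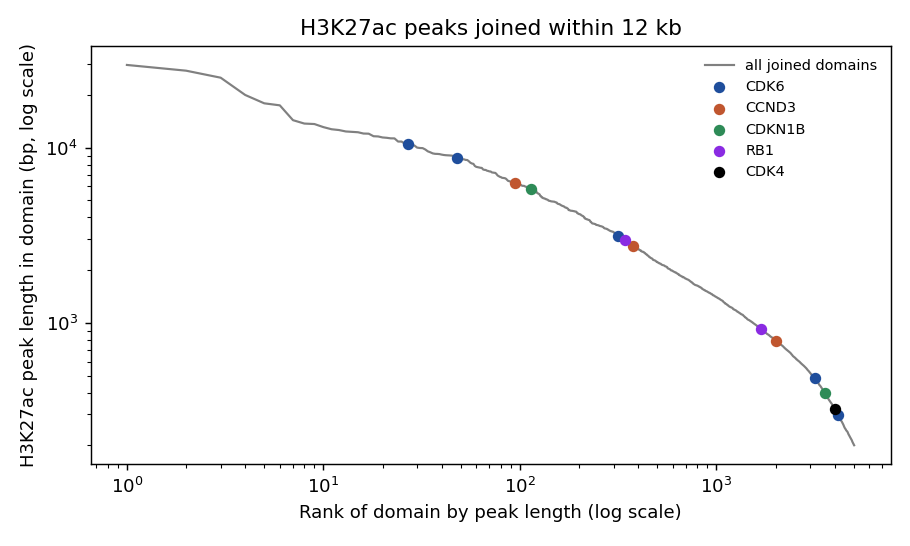
The grey line ranks all 5164 joined H3K27ac domains by the length of peak they hold (both axes on log scales), and coloured points are the domains in the windows of the 5 members with peaks. The start and intragenic domains of CDK6 rank 27 and 48, and those of CCND3 and CDKN1B follow at 94 and 114. The CDK4 peak ranks 4011.

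No H3K27ac peak was called near the other 5 genes, and the empty stretches differed in size. CDKN1A, which encodes a CIP/KIP inhibitor induced by p53 (chromosome 6, 36676463 to 36687332), had its nearest peak 81.3 kb below the gene, over the splicing factor gene SRSF3. CCND2 (chromosome 12, 4273762 to 4305353) had the nearest 129 kb above the gene and 339 kb below it. CCND1 (chromosome 11, 69641156 to 69654474) lay in a stretch of 1362 kb between neighbouring H3K27ac peaks, which also held FGF3, FGF4, FGF19 and ANO1. CDKN2A (chromosome 9, 21967752 to 21995324) and CDKN2B (22002903 to 22009313) are 7578 bp apart, share most of their windows and lay in the same stretch of 5143 kb. On the lower side the stretch ended 164 kb from CDKN2A at a 5.21-fold peak inside MTAP, a methionine salvage gene (21803341 to 21803573). On the upper side the next peak was 4951 kb from CDKN2A. The stretch held 7 protein-coding genes whole: CDKN2A, CDKN2B, DMRTA1, ELAVL2, IZUMO3, TUSC1 and CAAP1. Of 9834 distances between neighbouring H3K27ac peaks, 76 (0.773%) were at least as long as this one and 540 (5.49%) as the one at CCND1. For the stretch at CCND2 the number was 1274 (12.96%) and for that at CDKN1A 1555 (15.8%), with a median distance of 16.6 kb. These are shares of distances and not of genes or bases, and a long stretch takes up more of the genome than a short one. Of all genes, 55.2% had 0 H3K27ac peaks within 50 kb, so an empty window is common. All 8 NKX2-1 antibody libraries also had 0 peaks in the stretches around CDKN2A, CCND1 and CCND2, and in that around CDKN1A the knockout clones C12 and S36 had 1 each. Peak lists hold no copy number, and whether the locus is present in this line was not tested.

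**Figure D4:**
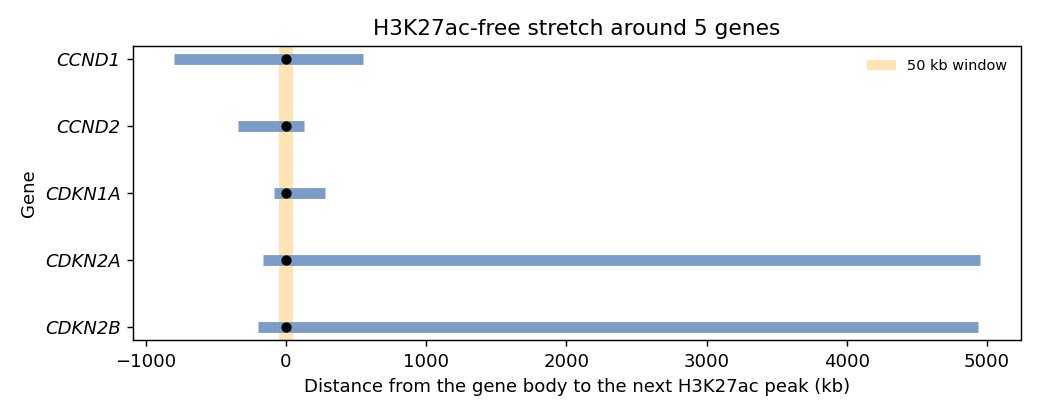
Bars run from the next H3K27ac peak below each gene to the next one above it, as distances from the gene body (black point) in kb; the shaded band is the 50 kb window. The bars of CDKN2A and CDKN2B reach 4951 and 4937 kb to the right, while that of CDKN1A is the shortest of the 5.

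Few peaks lay close to the boundary of the window. CCND3 had an H3K27ac peak just outside, 53.9 kb above the gene, and the farthest summit inside any window was the one 24287 bp beyond RB1. In a window of 100 kb CDKN1A gained 1 peak and CDK4 had 3.

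The design asks where NKX2-1 binds, and the knockout clones give the background of the antibody. Near the 10 genes, NKX2-1 antibody peaks were called in 1 of the 8 libraries: WT10 had 2 peaks at CCND3 and 1 at CDK6. WT13, WT28 and WT30 had 0 at each of the 10 genes, as had C12, C15, S04 and S36. The other 8 genes had 0 peaks in every library. A peak in any library was therefore found at 2 of 10 members, against 5.61% of all genes. For a WT10 peak it was 2 of 10 against 2.98%. These shares are not matched for window length. The windows of CDK6 and CCND3 are at least as long as those of 94.3% and 85.7% of all genes. At CCND3 the mean was 0.5 peaks per WT library and 0 per knockout library (n = 4 each). At CDK6 it was 0.25 and 0. The 2 genotypes overlap at both genes, since 3 of the 4 WT libraries equal the knockout libraries at 0. The two-sided exact permutation test over the 70 assignments of the libraries gave p = 1 for both genes, and adjusted p = 1 by Benjamini-Hochberg over the 1124 genes with a peak in any library. With peaks in 1 library alone, every assignment gives the same absolute difference, so the p-values of both genes were fixed in advance. Of the 1124 genes tested, 0 (0.00%) passed at an adjusted p under 0.05. At an unadjusted p under 0.05 there were 24, 13 of them higher in WT and 11 higher in knockout. The smallest p this design can give is that of 2 in 70 assignments, and an adjusted p under 0.05 would need at least 643 of the 1124 genes to have it, so the count of 0 was set by the number of libraries. Without WT10, neither gene had a peak in any library.

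**Figure D5:**
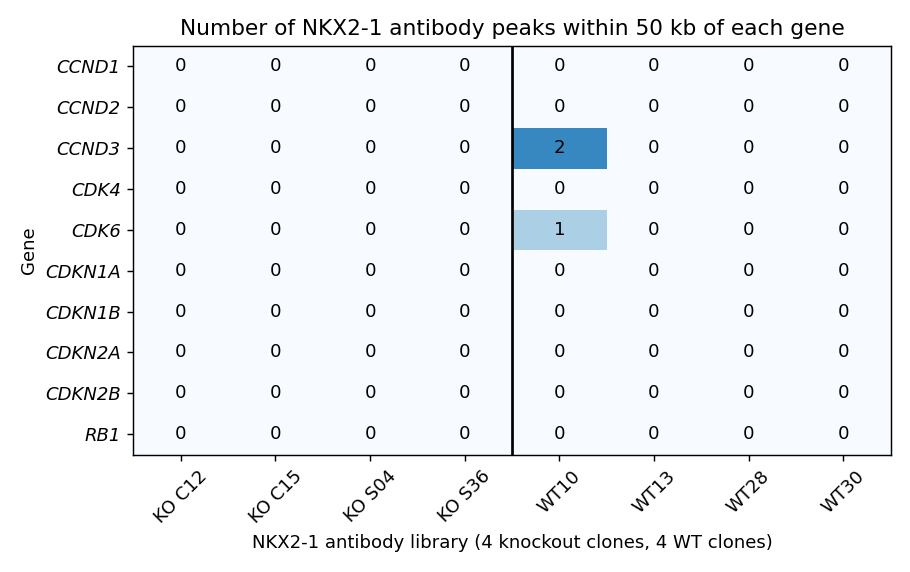
Each cell gives the number of NKX2-1 antibody peaks called within 50 kb of the gene in that library; the line separates the 4 knockout clones (KO) from the 4 WT clones. The cells above 0 are WT10 at CCND3 (2) and at CDK6 (1), and the remaining cells are 0.

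Within CCND3, the first WT10 peak (42045756 to 42046118, 363 bp) had a 5.60-fold enrichment and a −log10 q of 7.34, with its summit 4.02 kb inside the gene start. It met the CCND3 peak of the combined list (42045740 to 42045957, 3.53-fold, −log10 q 5.90), 202 bp of which (92.7%) it covered. That peak ranked 166 of 209 in the combined list by fold and lay 3452 bp from the nearest H3K27ac peak. The second WT10 peak (42017025 to 42017366, 342 bp, 4.46-fold, −log10 q 4.90) lay 32.7 kb inside the gene, within the 14-peak H3K27ac domain and 88 bp from an H3K27ac peak of 6.64-fold, and had no counterpart in the combined list. By fold these peaks ranked 636 and 812 of the 1144 in WT10, whose median was 5.90-fold. Exon positions were not used here, so whether these peaks lie in exons or introns was not determined.

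At CDK6, the WT10 peak (92755155 to 92755356, 202 bp, 3.97-fold, −log10 q 4.96) lay entirely inside the 3143 bp H3K27ac peak, 81.3 kb into the gene. Its summit was 731 bp from the H3K27ac summit. It ranked 875 of 1144 in WT10 by fold and was not in the combined list. The H3K27ac library names no clone, so the acetylation of this site in WT10 is not known. All 3 peaks had a −log10 q below the WT10 median of 10.8, and at a −log10 q of 10 or more, or among the 500 strongest peaks of each library, neither gene had a peak.

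The combined list had a region near 1 of 10 members, CCND3, against 1.68% of all genes. The WT-only list had regions near CCND3 (2) and CDK6 (1), against 2.40%. Neither share is matched for the long windows of these genes. The 3 WT-only regions had the same coordinates as the 3 WT10 peaks. The descriptions of all 8 NKX2-1 antibody samples name the combined list. Which libraries were treatment and which control for it is not given in the sources used here. Neither list is read as independent evidence. In the peak lists of the single libraries, each of these sites was called in WT10 alone. Over the 8 libraries, CCND3 and CDK6 were among 250 protein-coding genes with a peak in WT10 and in no other library. Those with the strongest WT10 peak were GAS7 (8.95-fold), BID and MICAL3 (8.25-fold each). The identical value at BID and MICAL3 may be a single peak counted for both, since genes with overlapping windows share peaks in this count. GAS7 had 5 H3K27ac peaks in its window and the other two had 0.

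Among 18 other genes of the pathway, 12 had an H3K27ac peak within 50 kb, against 44.8% of all genes, with a median of 2 peaks. None had as many as CCND3: the highest number was 8, at E2F2, one of the transcription factor genes that RB1 restrains, with a strongest peak of 12.3-fold. The strongest peak of the list was at CDKN2C, an INK4 inhibitor gene on chromosome 1 (4 peaks, up to 13.3-fold). A further INK4 gene, CDKN2D, had 4 peaks (up to 9.19-fold), and E2F3 had 4 (up to 12.2-fold). CDKN1C, RBL2, E2F5, TFDP1, CCNE1 and FBXW7 had 0. Among INK4 genes, CDKN2C and CDKN2D thus had H3K27ac peaks within 50 kb. CDKN2A and CDKN2B, which share most of their windows, had none, and whether their locus is present was not tested. With 44.8% of all genes having such a peak, this is no result about the family. FAF1, the gene next to CDKN2C, had the same 4 peaks and 3177 bp of peak counted in its window. The window of E2F2 overlaps that of ID3, which had 10 peaks, so the E2F2 peaks cannot be assigned to E2F2 from position alone. An NKX2-1 antibody peak was found near 1 of the 18 genes, against 5.61% of all genes. It was at CDKN2D, again in WT10 alone (chromosome 19, 10554008 to 10554233, 4.90-fold, −log10 q 5.72). It lay 12227 bp below the gene, overlapped KRI1 and no H3K27ac peak, and was in the WT-only list but not in the combined list (exact permutation p = 1, adjusted p = 1, n = 4 per genotype). As at CCND3 and CDK6, the p-value of a peak in 1 library alone was fixed in advance. Of the 18 genes, 0 passed the adjusted test in either direction and 0 had a combined-list region.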

How the data were processed

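RPMI-8402 chromatin was measured by ChIP-seq in 4 WT and 4 knockout NKX2-1 antibody libraries and 1 H3K27ac library. Per the submitters' processing notes, FastQC, Bowtie2, SAMtools, MACS2 and deepTools were used on hg38; versions, roles, the control and read depth are not given in the sources used here. Peaks were deposited by the authors with a score (10 times the −log10 q, not used), a fold enrichment ratio, the −log10 of p and q, and the summit offset, each as the peak caller wrote it. The WT-only list deposited by the authors holds positions only. The smallest −log10 q per library lay between 2.01 and 2.25.

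From these lists, peaks on chromosomes 1 to 22, X and Y overlapping a gene window by 1 bp were counted with Python 3.11.15, numpy 2.4.6 and pandas 2.3.3, in 1-based coordinates. Gene positions and promoters came from RefSeq GRCh38.p14, the assembly that hg38 names; all 10 members matched the gene table and 8 the promoter table. Peak numbers per library were compared by a two-sided exact permutation test for every gene with a peak, adjusted by Benjamini-Hochberg. The test was also run on simulated counts. There the changed genes had peaks in every WT library and no knockout library, a pattern unlike that of the members. All 10 members were named by rule, with 18 further pathway genes; neighbours were named where a peak overlapped them. Members and lists were chosen with earlier results of these data known. Alternatives were other windows, peak summits, a −log10 q of 10, the 500 strongest peaks, presence, covered length and each library left out. A further marker list is not reported here.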

Additional observations from a re-analysis of the deposited data

Results flagged for a closer look

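Within the 4 WT libraries, 1 library lay far from the others at 3 genes. The number of NKX2-1 antibody peaks was 2 at CCND3, 1 at CDK6 and 1 at CDKN2D in WT10, and 0 in WT13, WT28 and WT30 at each gene. With the other 3 libraries at 0, any call in a single library is marked in this way. The usual rate of chance marks, about 1 in 20 groups of samples, therefore does not apply to these counts. WT10 also had the most peaks of the 4 WT libraries (1144, against 742 to 875); the part of this in the 3 results was not tested.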

How the results depend on the processing

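The number of genes past the adjusted permutation test was 0 in each alternative (windows of 10 and 100 kb, summits, a −log10 q of 10 or more, presence, covered base pairs, the 500 strongest peaks) and without each library. At an unadjusted permutation p under 0.05 there were 5 to 37 genes in the alternatives. Without each library there were 24 to 60, most without WT13. In the main setting 643 of 1124 genes would need the smallest p, and the alternatives tested 518 to 1807 genes. These counts of 0 therefore say nothing about stability. The WT minus knockout difference of 0.5 peaks at CCND3 and 0.25 at CDK6 became 0 without WT10, at a −log10 q of 10 or more and among the 500 strongest peaks. The members with an H3K27ac peak numbered 4 (strict q) to 6 (100 kb); at the strict q CDK6 had 5 peaks, CDKN1B 2, CCND3 1 and RB1 1. In a window of 10 kb RB1 had 3. With peaks joined within 5 and 25 kb, alternatives chosen after seeing the data, the CDK6 domain at the gene start ranked 15 and 43. The second CDK6 domain split into domains ranking 208 and 116 at 5 kb and ranked 62 with 18 peaks at 25 kb. The CCND3 domain split into domains ranking 108 (11 peaks) and 1197 (3 peaks) at 5 kb and ranked 126 at 25 kb, and the CDKN1B domain ranked 84 and 127. No paired analysis was possible because the labels give the clones no shared numbers. Depth is unknown, and H3K27ac has 1 library.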

Other observations

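Outside the windows, the nearest NKX2-1 antibody peak of any library to the other 8 members lay at distances of 225 kb from CDKN1A, 520 kb from CCND2, 783 kb from CDKN2A, 818 kb from CDKN2B, 918 kb from CDKN1B, 996 kb from CCND1, 4317 kb from RB1 and 4508 kb from CDK4. The one nearest to CCND2 was called in WT28 alone (6.25-fold). The other nearest peaks were all called in S36, a knockout clone, and those nearest to CDKN1A and CDK4 in 1 further library each.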
